A study of Mus musculus with 14 samples.

Results

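The cytoplasmic ribosomal protein genes were taken from the RNA-seq count table of single ovulated mouse oocytes as the rows whose symbol is Rpl or Rps followed by a digit, together with Rplp0, Rplp1, Rplp2 and Rpsa. Symbols that begin with Rps6k, which name kinases, and symbols with -ps, which name pseudogenes, were not members. The rule gave 87 members of 24064 genes, 52 named for the large and 35 for the small subunit. Rps19bp1 met the rule by its symbol although it names a binding protein of RPS19, and Rpl7l1 is a paralogue of Rpl7. Of the members, 80 passed the filter on total count and 7 did not.

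The study compared oocytes with and without maternal KDM1A (LSD1), a histone demethylase. The 4 wt/wt oocytes (wt1, wt3, wt4 and wt5) carried unmodified Kdm1a on the C57BL/6J strain. The f/f oocyte (C3) carried the floxed Kdm1a alleles without Cre, on a mixed C57BL/6J and 129 background. The 5 mutants, named D1, D2, D3, D4 and D7, came from females of the same mixed background with floxed Kdm1a and Zp3-cre, a transgene whose promoter is active in growing oocytes, so that exon 1 was removed there. Libraries that share an oocyte name (2 each for C3, D3, D4 and D7) were summed. Oocyte C3 is a lone sample, and in the main comparison it was kept apart from the wt/wt oocytes. Strain and the naming of the libraries coincide with wt/wt against the other oocytes, so they cannot be told apart from genotype in that comparison. Nothing in the labels ties oocytes to separate females, and p-values measure the spread between these oocytes.

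Ribosomal proteins are the protein part of the ribosome, and each is needed in about the same number of copies as the others. Their mRNAs are short, plentiful in dividing cells, and mostly begin with a 5′ terminal oligopyrimidine (TOP) tract, a C followed by a run of C and T residues that places their translation under the control of the mTOR kinase. A fully grown oocyte does not transcribe and lives on stored mRNA. The libraries here were primed on poly(A), so they hold polyadenylated transcripts.

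The annotated starts of 66 members were in the RefSeq promoter table (GRCm38.p6, the build of mm10). A C followed by at least 5 pyrimidines was searched on the strand of the gene within 15 bases on either side of each start. It was found for 37 of the 66 members (56.1%) and for 25.5% of all 27025 genes in the table. The opposite strand was not searched, and a window without a run says only that these letters are not within it. Among members with a start, a run was present for 18 of 25 that were lower in mutant oocytes than in wt/wt oocytes, for 5 of 9 that were higher and for 11 of 26 that were not called. A run could lie anywhere in the window, so it need not be a TOP tract that begins at the start. The windows below show some of the members called in either direction whose starts hold a run. Capitals mark the pyrimidine run, and each sequence is the 5′ to 3′ strand of the gene with its position.
Rps18 (lower), chr17:33955651-33955680, minus strand: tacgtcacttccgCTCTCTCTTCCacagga
Rpl14 (lower), chr9:120571502-120571531, plus strand: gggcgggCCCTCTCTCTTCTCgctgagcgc
Rps6 (lower), chr4:86857353-86857382, minus strand: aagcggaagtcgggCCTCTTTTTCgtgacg
Rpl12 (lower), chr2:32961697-32961726, plus strand: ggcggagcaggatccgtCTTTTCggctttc
Rps12 (higher), chr10:23787195-23787224, minus strand: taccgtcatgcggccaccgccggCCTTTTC
Rplp2 (higher), chr7:141447636-141447665, plus strand: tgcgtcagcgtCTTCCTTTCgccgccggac
Rps2 (higher), chr17:24720048-24720077, plus strand: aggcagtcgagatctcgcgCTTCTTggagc
Rpl24 (lower) and Rps28 (higher) had no such run at their annotated starts.
Rpl24, chr16:55966260-55966289, plus strand: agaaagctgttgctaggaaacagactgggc
Rps28, chr17:33824548-33824577, minus strand: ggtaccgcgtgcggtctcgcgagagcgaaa

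Total counts ran from 1375187 to 1892015 for wt/wt and from 2016701 to 6926076 for mutants, and C3 had 6928548. Kdm1a, the deleted gene, had 70, 43, 85 and 27 counts in wt/wt, 669 in C3 and 0, 2, 4, 3 and 10 in the mutants. Its log2 fold change of mutant against wt/wt was -4.05 (SE 0.74, adjusted p = 0.00089, edgeR). The cumulus and granulosa cell markers were nearly empty apart from Serpine2. Of 24 markers, 13 had no count in any oocyte, among them Amh, Inha, Foxl2, Fshr and Lhcgr, and without Serpine2 the list summed to 28 to 48 counts in wt/wt, 38 in f/f and 11 to 56 in mutant oocytes. With it the list summed to 487 to 618 CPM in wt/wt, 533 in f/f and 47.2 to 200.4 in mutant oocytes. Of 11 blood and immune cell markers, 10 had no count. All 16 oocyte genes were present, at 21037 to 36279 CPM in wt/wt, 62516 in f/f and 64441 to 127928 in mutant oocytes, and 11 of the 16 were called higher in mutant than in wt/wt oocytes (18.7% of all genes tested were). The part of these differences in the values below was not tested.

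Ribosomal protein genes took a small share of the counts in every oocyte. The share was 0.558%, 0.510%, 0.324% and 0.638% in wt1, wt3, wt4 and wt5, 0.159% in the f/f oocyte and 0.863%, 0.527%, 0.395%, 0.717% and 0.353% in D1, D2, D3, D4 and D7. The mean was 0.508% ± 0.133 (SD, n = 4) in wt/wt and 0.571% ± 0.216 (SD, n = 5) in mutant oocytes, and these ranges overlapped. The floxed oocyte C3 lay below all others, with an exact binomial (Clopper-Pearson) 95% interval of 0.156% to 0.162%. Such intervals cover counting error only, since reads copied by PCR are not independent molecules. Rps2, Rps12 and Rplp1 together held 8.32% of the summed member level in wt/wt, 15.5% in f/f and 41.9% in mutant oocytes. These 3 genes were chosen for their levels in the mutants. Without them the share of all counts was 0.523%, 0.475%, 0.292% and 0.571% in wt1, wt3, wt4 and wt5, 0.135% in C3 and 0.499%, 0.259%, 0.269%, 0.397% and 0.239% in D1, D2, D3, D4 and D7. The means were 0.465% in wt/wt and 0.333% in the mutants, and the groups overlapped, with D1 above wt3 and wt4 below D1 and D4.

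**Figure D1:**
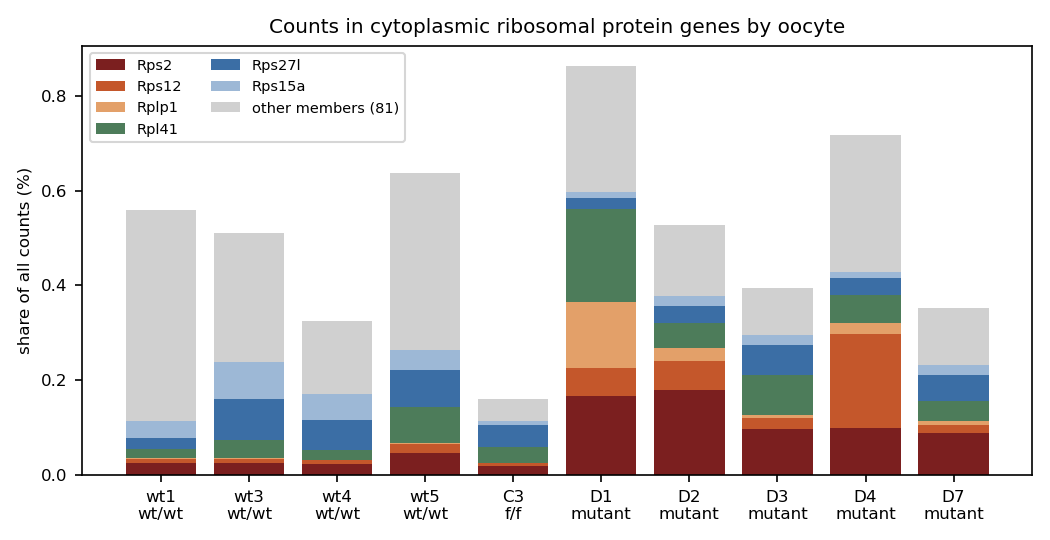
Share of all counts (%) in ribosomal protein genes in each oocyte, stacked by gene for 6 members with the other 81 members in grey. Rps2, Rps12 and Rplp1, at the foot of the bars, hold a larger part of the bar in each of the 5 mutant oocytes, and the f/f bar ends at 0.159%.

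The typical member stood lower in mutant oocytes while a few members carried much of the total. Levels are CPM, the counts of a gene scaled to library size with TMM factors (edgeR's trimmed mean of M values), and 3 counts stand for 0.456 to 1.83 CPM. The median of the 80 tested members was 43.9, 22.01, 12.3 and 30.7 CPM in wt1, wt3, wt4 and wt5, 2.89 CPM in the f/f oocyte and 16.2, 9.75, 4.81, 14.9 and 8.97 CPM in D1, D2, D3, D4 and D7. By this median wt4 lay among the mutant oocytes, and C3 had the lowest of the 10 medians. Among all genes tested, the median CPM of the wt/wt oocytes differed by no more than 1.05 times, whereas the member median of wt1 was 3.58 times that of wt4. The scaling is set over these same genes, so the near-equal medians of all genes are not an independent measure. Within the wt/wt group, wt1 was the highest for 50 of the 80 members (25.7% of all genes) and wt4 the lowest for 66 (21.3% of all genes). Within the mutant group, D4 was the highest for 36 (30.7% of all genes), D1 for 28 (19.1% of all genes) and D3 the lowest for 46 (16.8% of all genes). The median member stood at percentile 67.0 of the genes tested in wt/wt, 48.3 in mutant and 30.6 in f/f oocytes.

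**Figure D2:**
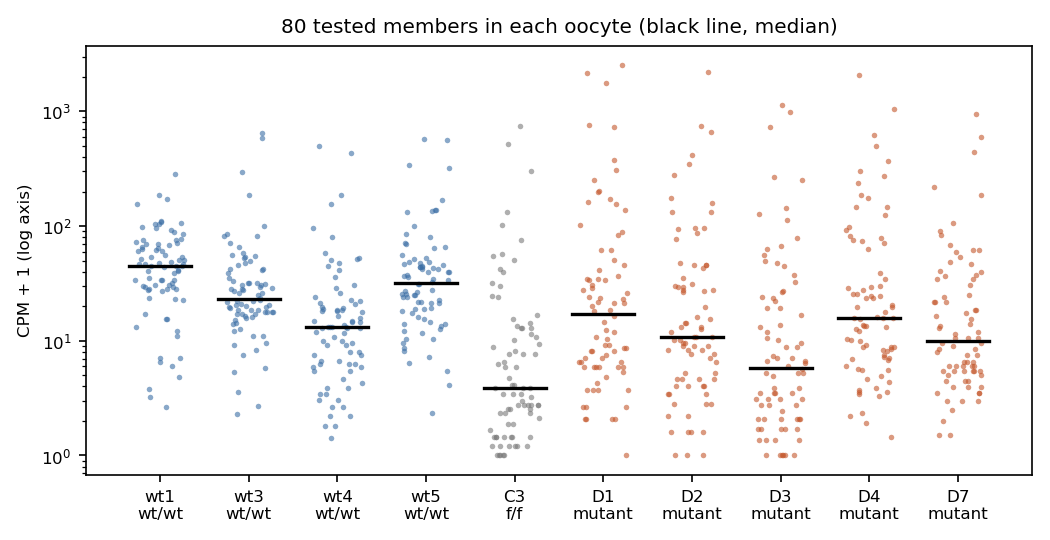
CPM + 1 (log axis) of the 80 tested ribosomal protein genes in each oocyte, with each gene as a point and the median as a black line. Medians run from 12.3 to 43.9 CPM in wt/wt, are 2.89 CPM in f/f and run from 4.81 to 16.2 CPM in mutant oocytes, where some genes exceed 1000 CPM.

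Mutant against wt/wt oocytes was the comparison with the f/f oocyte left out. Of the 80 members tested, 35 were lower in mutant oocytes, 12 were higher and 33 were not called, where a call needed an adjusted p under 0.05 in edgeR's quasi-likelihood test (Benjamini-Hochberg over all 9198 genes) and a log2 fold change of at least 1 in size. The lower calls made up 43.8% of the members against 12.9% of all genes tested, and the higher calls 15% against 18.7%. The median log2 fold change of the members was -1.11, and that of all genes tested was 0.27. In the large subunit 19 of 47 were lower and 5 higher, and in the small subunit 16 of 33 were lower and 7 higher, with median log2 fold changes of -1.06 and -1.26. Levels did not overlap between mutant and wt/wt oocytes for 21 members that were lower in every mutant oocyte (26.2% of members, 12.4% of all genes) and 7 that were higher (8.75% of members, 13.8% of all genes). Leaving out wt1, the wt/wt oocyte with the highest member levels, reduced the lower calls to 22 (27.5% of members, 10.4% of all genes in that fit). With the trends over GC content and transcript length removed, 46 members were lower (57.5%, against 16.3% of all genes in that fit) and 7 higher (8.75%, against 15.3%).

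**Figure D3:**
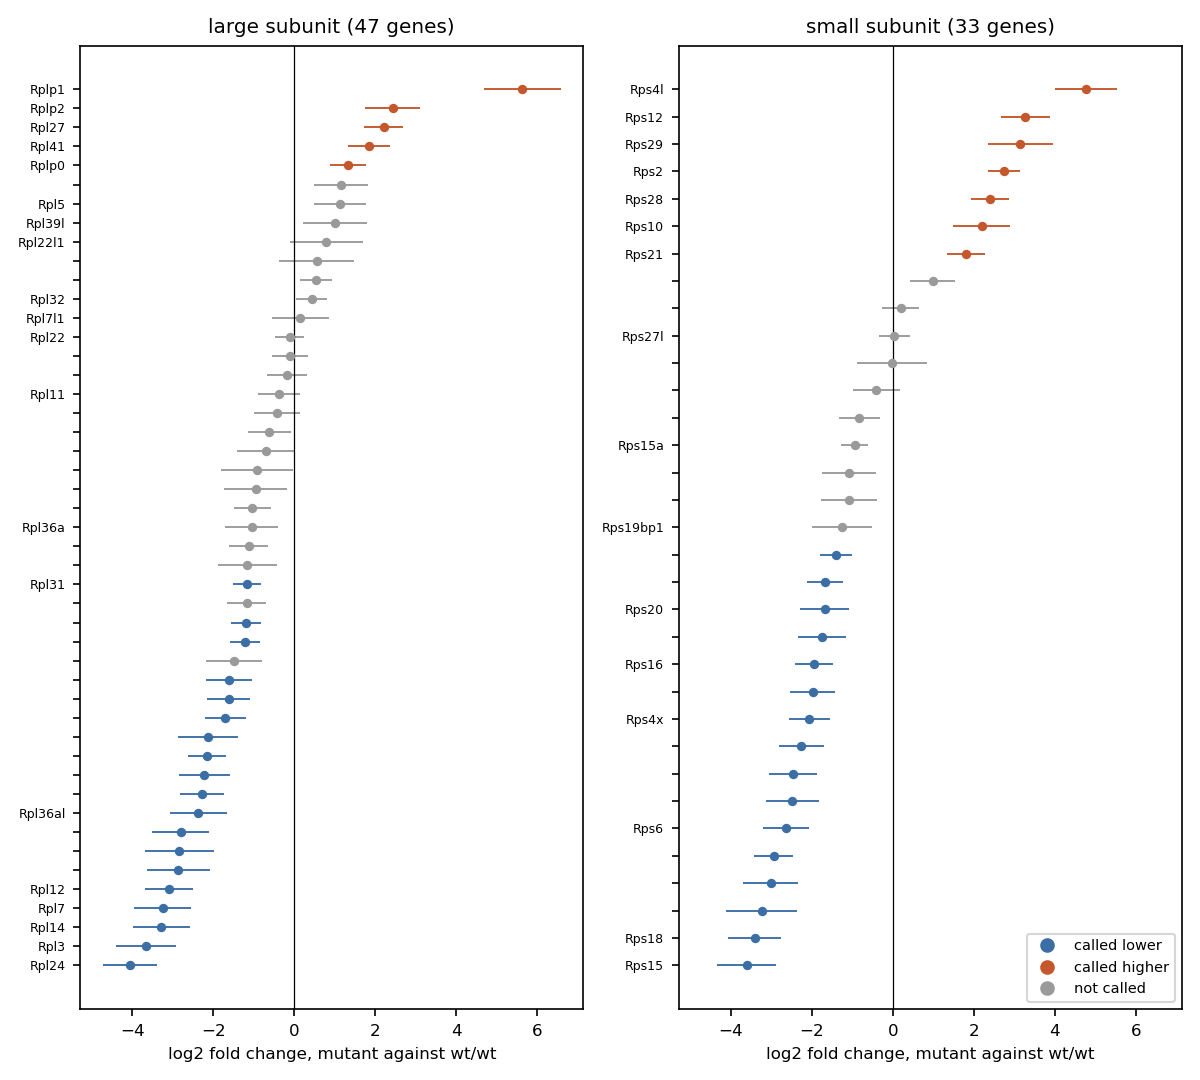
Log2 fold change of mutant against wt/wt oocytes for each tested member, large subunit left and small subunit right, with bars of 1 standard error and with names for genes described in the text. Blue points were called lower, orange points higher and grey points not called. Values run from -4.05 for Rpl24 to 5.63 for Rplp1.

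Among the members that fell, Rpl24, a late-joining protein of the large subunit at the face between subunits, had the largest change. Its level was 29.8, 15.97, 17.2 and 26.0 CPM in wt1, wt3, wt4 and wt5, 0.444 CPM in the f/f oocyte and 1.10, 1.83, 0, 2.59 and 0.499 CPM in D1, D2, D3, D4 and D7. Each of the mutants, and C3 as well, stood below all 4 wt/wt oocytes. Against wt/wt, its log2 fold change in mutants was -4.05 (SE 0.67, adjusted p = 0.00044, edgeR), and -4.75 without D4.

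Rpl3, which lies near the catalytic centre of the large subunit, had 46.4, 16.8, 17.99 and 25.6 CPM in wt/wt, 0.222 in f/f and 4.94, 0, 1.07, 0.456 and 4.49 CPM in mutant oocytes. The groups did not overlap, and the log2 fold change was -3.67 (SE 0.74, adjusted p = 0.0017, edgeR). Rpl12, a protein of the base of the stalk that carries the P proteins, had 53.1, 25.9, 11.9 and 20.2 CPM in wt/wt, 0.666 in f/f and 7.13, 2.44, 1.07, 2.74 and 2.99 CPM in mutant oocytes. All mutant oocytes were below all wt/wt oocytes, with a log2 fold change of -3.10 (SE 0.59, adjusted p = 0.0012, edgeR).

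Rpl14 and Rpl7, both of the large subunit, fell from 18.5 ± 6.21 to 1.97 ± 1.88 CPM and from 27.6 ± 22.2 to 2.66 ± 2.34 CPM (mean ± SD, n = 4 and n = 5). For both, every mutant oocyte lay below every wt/wt oocyte, and the log2 fold changes were -3.28 and -3.25. The change of Rpl7 was -2.57 without wt1 and -3.92 without D4, and that of Rpl14 was -3.91 without D1.

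In the small subunit, Rps18, a protein of the head of the subunit, had 40.3, 21.1, 6.54 and 30.1 CPM in wt/wt, 0.444 in f/f and 3.84, 4.26, 0.712, 0.913 and 2.49 CPM in mutant oocytes. The lowest wt/wt oocyte, wt4, stood close to the highest mutant oocyte, D2. The log2 fold change was -3.41 (SE 0.65, adjusted p = 0.0012, edgeR).

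Rps15 fell from 15.9 ± 9.38 to 1.15 ± 0.994 CPM (mean ± SD, n = 4 and n = 5), without overlap. Rps6, the ribosomal protein that S6 kinases phosphorylate, had 71.3, 28.5, 13.9 and 38.6 CPM in wt/wt, 1.33 in f/f and 4.94, 3.66, 1.78, 12.3 and 6.48 CPM in mutant oocytes. Its log2 fold change was -2.64 (SE 0.57, adjusted p = 0.0027, edgeR), again without overlap.

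Rps16 and Rpl31 fell while varying little among wt/wt oocytes. Rps16 had 45.9, 41.0, 46.6 and 41.7 CPM in wt/wt, 12.4 in f/f and 17.0, 8.53, 4.63, 5.93 and 20.9 CPM in mutant oocytes. Rpl31 had 49.2, 53.5, 50.7 and 54.7 CPM in wt/wt, 56.4 in f/f and 20.3, 26.2, 15.7, 24.5 and 29.4 CPM in mutant oocytes. For Rpl31 the f/f oocyte stood just above the wt/wt oocytes and above every mutant oocyte, which was seldom so among the members that fell. Its log2 fold change was -1.16 (SE 0.35, adjusted p = 0.019, edgeR).

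Of the 35 lower members, 21 were called in each of the 9 fits that left out an oocyte. Being called lower favours high wt/wt values, so the f/f level of the 35 is set here beside that of all genes called lower. It was below every wt/wt oocyte for 30 of the 35 (58.0% of all genes called lower), within the wt/wt range for 4 and above it for 1. Against the mutant oocytes it was below all of them for 15 of the 35 (4.39% of all genes called lower), within their range for 18 and above them for 2 (63.0% of all genes called lower).

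The 3 genes of the P stalk, the flexible arm of the large subunit that recruits the GTPases of translation, were all called higher in mutant oocytes. Rplp1 had 6.08, 15.97, 5.32 and 12.6 CPM in wt/wt, 2.89 in f/f and 1780, 347, 54.5, 234 and 82.8 CPM in D1, D2, D3, D4 and D7. Every mutant oocyte was above every control oocyte, with D1 far above the others. The log2 fold change was 5.63 (SE 0.94, adjusted p = 0.00049, edgeR) and 4.16 without D1.

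Rplp2, the partner of Rplp1 in the stalk, had 5.53, 18.6, 17.6 and 11.7 CPM in wt/wt, 23.3 in f/f and 202, 85.3, 22.4, 15.1 and 38.4 CPM in mutant oocytes. D4 lay within the wt/wt range, and the log2 fold change of 2.43 (SE 0.68, adjusted p = 0.013, edgeR) was 1.57 without D1, where it was no longer called (adjusted p = 0.053). Rplp0, which anchors both, had 9.95, 14.7, 20.04 and 8.52 CPM in wt/wt, 9.77 in f/f and 49.4, 44.5, 18.2, 22.7 and 33.4 CPM in mutant oocytes. D3 lay within the wt/wt range, so the groups overlapped. The log2 fold change was 1.32 (SE 0.45, adjusted p = 0.034, edgeR), and it was called in 4 of 9 fits that left out an oocyte, failing without wt1, wt3, wt5, D1 or D2. Neither Rplp0 nor Rplp2 was called once the GC and length trends were removed.

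Of the small subunit members that rose, Rps2 had 186, 184, 184 and 340 CPM in wt/wt, 303 in f/f and 2152, 2204, 1131, 1056 and 939 CPM in mutant oocytes. All mutant oocytes stood above all other oocytes, and the log2 fold change of 2.74 (SE 0.39, adjusted p = 0.00013, edgeR) had the smallest p among the members. Rps12 had 75.2, 65.2, 57.7 and 137 CPM in wt/wt, 73.9 in f/f and 756, 743, 268, 2088 and 186 CPM in mutant oocytes. Its log2 fold change was 3.27 (SE 0.61, adjusted p = 0.0011, edgeR) and 2.54 without D4, the oocyte with the most. Only 9.87% of the 49-base words of Rps12 and 20.6% of those of Rps2 were found in no other gene, so their unique reads came from short stretches.

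Rps29, Rps28 and Rps21 are among the shortest members and rose as well. Rps29 had 45.3, 27.2, 5.72 and 35.4 CPM in wt/wt, 2.89 in f/f and 723, 130, 76.9, 304 and 22.9 CPM in mutant oocytes. D7 lay within the wt/wt range, and the log2 fold change of 3.15 (SE 0.80, adjusted p = 0.0072, edgeR) was 2.24 without D1. Rps28 had 22.1, 48.3, 22.9 and 44.9 CPM in wt/wt, 101 in f/f and 379, 93.8, 143, 184 and 106 CPM in mutant oocytes. Oocyte C3 was above every wt/wt oocyte and within the mutant range for this gene, and the log2 fold change of mutant against wt/wt was 2.39.

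Rps21 rose from 30.9 ± 7.18 to 109 ± 66.5 CPM and Rpl27, of the large subunit, from 11.0 ± 6.17 to 50.7 ± 21.8 CPM (mean ± SD, n = 4 and n = 5), both without overlap. Rpl41, which encodes a very short peptide, had 154, 296, 154 and 559 CPM in wt/wt, 517 in f/f and 2532, 659, 986, 624 and 445 CPM in mutant oocytes. D7 was below wt5, and the log2 fold change of 1.85 (SE 0.52, adjusted p = 0.014, edgeR) was 1.22 without D1 and was not called without wt4. The remaining member that rose, Rps10, went from 4.16 ± 0.909 to 19.3 ± 17.8 CPM with overlap, and it was called in 4 of 9 fits that left out an oocyte, failing without wt1, wt3, wt4, D1 or D2. Rplp1, Rps2, Rps4l, Rps12, Rps28, Rps29, Rpl27 and Rps21 were called in each of those 9 fits. With the GC and length trends removed, Rps21, Rpl41 and Rps10 lost their calls, as they did with library totals.

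**Figure D4:**
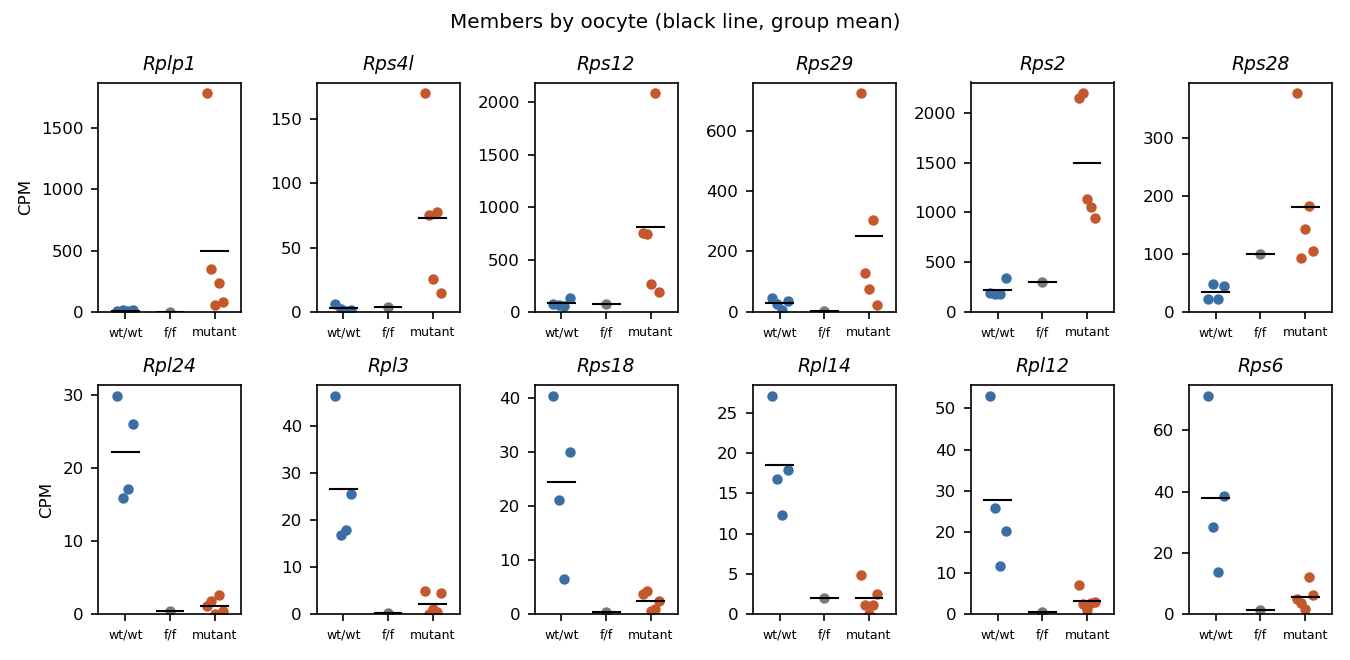
CPM (linear axes from 0, different for each gene) of 12 members by oocyte, with the group mean as a black line. In the upper row, genes called higher, the highest mutant value of Rplp1, 1780 CPM in D1, stands far above the other oocytes. In the lower row, genes called lower, the f/f point lies beside or below the mutant points.

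The paralogous pair Rps4x and Rps4l moved in opposite directions. Rps4x is the X-linked gene for eS4, and Rps4l on chromosome 6 is annotated in GENCODE as a transcribed processed pseudogene, with a span of 943 bases that equals the length of its transcript. It was a member by its symbol. Rps4x had 60.2, 18.6, 14.7 and 50.7 CPM in wt/wt, 1.11 in f/f and 4.94, 7.92, 9.26, 12.6 and 7.48 CPM in the mutants (log2 fold change -2.06, SE 0.50, adjusted p = 0.0054, edgeR). Rps4l had 6.08, 2.59, 0.818 and 1.35 CPM in wt/wt, 3.77 in f/f and 170, 75.5, 25.6, 78.0 and 14.5 CPM in the mutants (log2 fold change 4.77, SE 0.77, adjusted p = 0.00036, edgeR). It was 5.48 without wt1.

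Counts of Rps4l per count of Rps4x, a ratio that needs no scaling between oocytes, were 0.101, 0.140, 0.0556 and 0.0265 in wt/wt, 3.40 in f/f and 34.4, 9.54, 2.77, 6.18 and 1.93 in mutant oocytes. The floxed oocyte C3 lay within the mutant range of this ratio and above every wt/wt oocyte. Of the 49-base words, 84.7% for Rps4l and 26.97% for Rps4x were found in no other gene. Rps4l lies on the strand opposite to Tmtc1, and how the counting used strand is not given in the sources used here.

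Of the copies Rps27l, Rpl22l1, Rpl39l, Rpl7l1 and Rpl36al, the last was called between mutant and wt/wt oocytes and the other four were not. Rps27l, the p53-responsive paralogue of Rps27, had 170, 643, 498 and 574 CPM in wt/wt, 737 in f/f and 309, 418, 726, 368 and 598 CPM in mutant oocytes (log2 fold change 0.04, SE 0.39, adjusted p = 0.95, edgeR). Rps27 itself had no count in any oocyte, and only 1.35% of its 49-base words were found in no other gene, the lowest share of the members. Per kb of transcript, Rps27l was the highest member in wt/wt oocytes at 944 CPM, before Rpl41 at 535, Rps2 at 224, Rpl32 at 215 and Rpl22 at 187. This order depends on the annotated transcript used for each gene. Rps15a had a mean of 403 CPM in wt/wt oocytes but 78.6 CPM per kb with the transcript of 5130 bases used for it.

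Rpl22 had 88.6 ± 35.6 CPM in wt/wt and 82.1 ± 16.2 CPM in mutant oocytes, and its paralogue Rpl22l1 had 2.32 ± 2.17 and 3.81 ± 4.82 CPM (SD, n = 4 and n = 5). Neither was called, and the sign of the Rpl22l1 change turned without D4 (log2 fold change 0.79 with it and -0.45 without it). Rpl39l, which shares no 49-base word with another gene, had 1.66, 17.7, 13.9 and 10.8 CPM in wt/wt, 5.33 in f/f and 17.6, 7.31, 7.83, 73.2 and 2.49 CPM in mutant oocytes, without a call. Its log2 fold change was 1.00 with D4 and -0.34 without it.

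Rpl36al fell from 13.0 ± 8.32 to 2.32 ± 1.51 CPM (log2 fold change -2.37, SE 0.70, adjusted p = 0.016, edgeR), a call lost without wt1, and its paralogue Rpl36a had a log2 fold change of -1.06 (SE 0.65, adjusted p = 0.22, edgeR), or -1.67 (adjusted p = 0.056) without D4. Rpl7l1 had 6.71 ± 4.31 CPM in wt/wt, 23.5 in f/f and 7.47 ± 4.95 CPM in mutant oocytes. Rps19bp1, the binding protein, had 5.35 ± 3.08 CPM in wt/wt and 2.30 ± 1.88 in mutant oocytes, with no call. Rpl10l, Rpl3l, Rpl30 and Rpl34 were too low to test, and Rpl26 and Rps27rt, like Rps27, were at 0 throughout.

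Rpl5 and Rpl11 form the 5S particle with 5S rRNA and bind MDM2 when ribosome assembly is disturbed. Rpl5 had 108, 46.6, 27.8 and 134 CPM in wt/wt, 11.99 in f/f and 160, 94.4, 62.3, 503 and 35.9 CPM in the mutants, which gave a log2 fold change of 1.12 (SE 0.65, adjusted p = 0.19, edgeR). D4 was far above the others, and the change was 0.16 without it. Rpl11 had 64.1, 40.6, 18.4 and 84.3 CPM in wt/wt, 8.44 in f/f and 60.3, 46.9, 12.1, 62.4 and 17.5 CPM in mutant oocytes (log2 fold change -0.38, SE 0.52, adjusted p = 0.61). The groups overlapped for both genes. Oocyte C3 was below every other oocyte for both. Rpl32 was likewise not called, at 111 ± 37.4 CPM in wt/wt and 150 ± 64.4 CPM in mutant oocytes.

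The f/f oocyte was placed member by member, without a test, since it has no replicate. It lay below every wt/wt oocyte for 60 of the 80 members (75.0%, against 23.4% of all genes tested), within their range for 15 and above it for 5 (6.25%, against 28.4% of all genes). It lay below every mutant oocyte for 45 members (56.2%, against 24.4%), within their range for 31 and above it for 4 (5.00%, against 25.1%). The median difference in log2 CPM from the wt/wt mean was -2.31 over members and 0.03 over all genes, and from the mutant mean it was -1.51 over members and -0.08 over all genes. For comparison, the mutant mean stood 1.15 below the wt/wt mean in the same unit (members, median -1.15). Of the tested members, 5 had no count and 19 had 3 counts or fewer in the f/f oocyte, although its total count was the highest. Its 2 libraries gave member shares of 0.158% and 0.161%. The floxed oocyte C3 was above every wt/wt oocyte for Rps27l, Rpl7l1, Rps28, Rplp2 and Rpl31, of which Rpl31 was among the members that fell in mutant oocytes.

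Mutant against all 5 control oocytes, the comparison with the f/f oocyte counted as a control, gave 18 lower members (22.5%, against 11.2% of all genes tested) and 12 higher members (15%, against 14.7%), with a median log2 fold change of -0.82 over members and 0.17 over all genes. This comparison shares its mutant and wt/wt oocytes with the one above. Rpl24 had a log2 fold change of -3.75 (SE 0.89), Rpl31 of -1.19 (SE 0.33) and Rps16 of -1.73 (SE 0.51), with adjusted p of 0.0072, 0.016 and 0.021 (edgeR). Rplp1 had 5.87 (SE 0.91), Rps4l 4.63 (SE 0.69), Rps12 3.30 (SE 0.58) and Rps2 2.64 (SE 0.39), with adjusted p of 0.00065, 0.00058, 0.0012 and 0.00055. Without D1 the change of Rplp1 was 4.397, and without D4 that of Rps12 was 2.58 and that of Rpl24 -4.42, each still called. Rps4x was not called here (-1.75, SE 0.69, adjusted p = 0.069).
The number of lower members rested on the oocytes used. It was 6 without wt1 (7.5% of members, 8.61% of all genes in that fit), 9 without D3 (11.25%, against 9.97%), 10 without D1 (12.5%, against 7.73%), 11 without D2 (13.75%, against 8.74%) and 35 without C3. The excess of lower calls over all genes was thus lost without wt1 and small without D3. Of the 18 lower members, 6 were called in each of the 10 fits that left out an oocyte. With the GC and length trends removed, 37 were lower (46.25%, against 14.1% of all genes in that fit) and 6 higher (7.5%, against 11.5%), with Rpl41, Rplp0, Rplp2, Rps10, Rps21 and Rps28 no longer called. With an oocyte left out and the trends kept, 8 of the 12 higher members were called in each of the 10 fits.

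Transcript length went with the direction among members. Of the 27 shortest tested members (364 to 637 bases), 7 were lower and 7 higher in mutant than in wt/wt oocytes, with a median log2 fold change of 0.04. Of the middle 27 (661 to 937 bases), 12 were lower and 1 higher, with a median of -1.16, and of the 26 longest (943 to 5130 bases) 16 were lower and 4 higher, with a median of -1.68. Spearman's rho of log2 fold change with length was -0.23 over the 80 members and -0.15 over 9140 genes with a length, as descriptions across genes of the same libraries. Among all 655 tested genes with a transcript of at most 1000 bases, members included, the median log2 fold change was 0.73, with 9.01% lower and 30.1% higher. The medians of the 27 shortest and of the middle 27 members, all of at most 937 bases, were below that value. The shortest members stood above the longest. The RefSeq-based counts cover up to the last 3 kb of a transcript by the library method. The annotated transcripts used here for Rps15a (5130 bases) and Rps20 (3706 bases) are longer than that. They were chosen by support level before length, and which forms the oocytes hold was not tested.

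**Figure D5:**
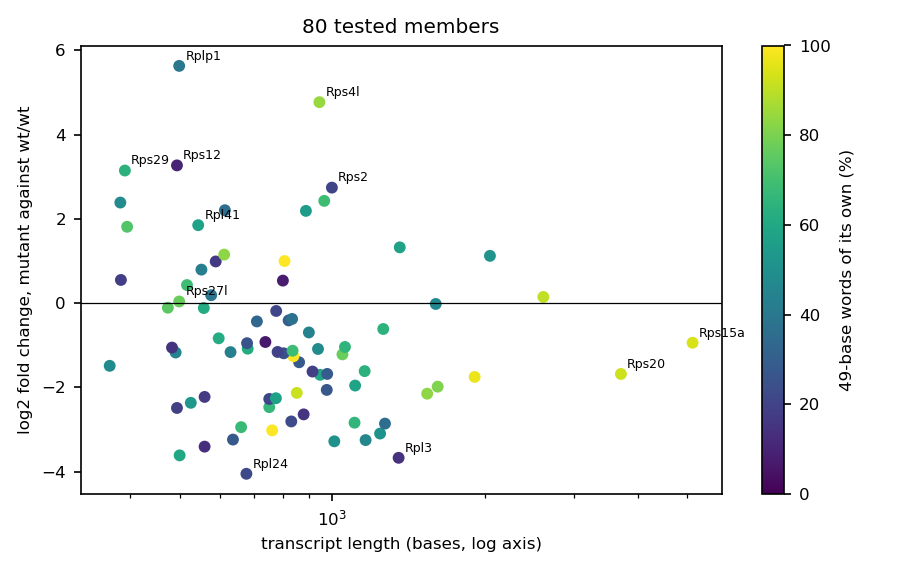
Log2 fold change of mutant against wt/wt oocytes by transcript length in bases (log axis) for the 80 tested members, coloured by the share of 49-base words found in no other gene (%). Points above 2 lie at 1000 bases or less, and dark and light points are mixed over the range of change.

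Members share much of their sequence with pseudogenes, and the deposited counts hold only reads with a unique best alignment. In 49-base words, the read length, a median of 49.1% of a member's transcript was found in no other annotated gene, and 44 of the 87 members had under 50%. Of these, 40 were tested, and 17 were lower and 5 higher in mutant against wt/wt oocytes (median log2 fold change -1.13). Of the 40 tested members with at least 50%, 18 were lower and 7 higher (median -1.11). Over all genes tested 12.9% were lower and 18.7% higher, and the higher calls of neither set exceeded that share. Spearman's rho of log2 fold change with this share was 0.08 over the 80 members. Levels of different members are understated to different degrees, so their order per kb is that of uniquely placed reads.

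Genes next to the ribosomal proteins in the pathway were counted in the comparison of mutant with wt/wt oocytes, in which 12.9% of all genes tested were called lower and 18.7% higher. Fau and Gnb2l1, ribosomal protein genes outside the naming rule, had log2 fold changes of -1.42 and -0.24 and were not called (adjusted p = 0.074 and 0.61, edgeR), and Fau had an unadjusted p of 0.028. Of 17 tested elongation factors and other genes with TOP mRNAs, 7 were lower and 3 higher, with a median of -1.01 against 0.27 over all genes. The higher calls were near the share over all genes. Eef1a1, which brings aminoacyl-tRNA to the ribosome, had 68.5 CPM in wt/wt and 15.4 CPM in mutant oocytes (log2 fold change -2.12, SE 0.53), and Eef1g had 12.8 and 1.53 CPM (adjusted p = 0.0034, edgeR). Eif3k, a subunit of the initiation factor eIF3, had 26.8 and 114 CPM (2.08, SE 0.41). Of 15 tested regulators of TOP mRNAs, 3 were lower and 1 higher. Larp4b, an RNA-binding protein of the La family, was the higher gene (3.10, SE 0.51), and Rps6kb1, an S6 kinase, was among the lower (-1.25, SE 0.40), while Mtor had a log2 fold change of -0.32 (SE 0.35).

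The lists for the assembly of ribosomes had medians near 0, and their calls are to be read beside the same 12.9% lower and 18.7% higher over all genes. Of 40 tested small subunit assembly genes 5 were lower and 6 higher (median log2 fold change 0.08), of 38 large subunit assembly genes 4 were lower and 6 higher (0.12), and of 11 RNA polymerase I genes 1 was lower and 1 higher (0.20). The subunit shared by RNA polymerases I and III, Polr1d, rose by 2.70 (SE 0.56), and the box C/D snoRNP protein Nop56 had a log2 fold change of -3.81 (SE 0.92). Among the 66 tested mitochondrial ribosomal protein genes 4 were lower and 9 higher (median 0.26), and among the 74 tested respiratory chain genes 1 was lower and 24 were higher (median 1.17). The respiratory chain genes with the smallest p, Ndufa4 and Ndufa1, had log2 fold changes of 3.09 (SE 0.41) and 3.75 (SE 0.51). In the f/f oocyte, the median difference in log2 CPM from the wt/wt mean was -0.49 for mitochondrial ribosomal protein genes and -0.45 for respiratory chain genes, against -2.31 for the cytoplasmic members.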

How the data were processed

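Single ovulated oocytes were measured by RNA-seq with cDNA primed on poly(A), a method that reaches at most 3 kb upstream of the 3′ end. The deposited values are raw counts for RefSeq genes, made by the authors from filtered 49-base reads aligned to mm10 with TopHat (2.0.6 in the submitters' processing notes) and counted with HTSeq (0.5.3p9 there) over unique best alignments. The 14 libraries were summed to 10 oocytes by shared oocyte name. The submitters number these libraries as separate oocytes, and treating every library separately was an alternative. A column with its letters transposed was read as the library of the only sample it could name.

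After dropping genes with no count, the top 60% by total count were kept (9198 of 15432). Mutant (n = 5) and wt/wt (n = 4) oocytes, and mutant and control (n = 5) oocytes, were tested against each other by edgeR 4.0.16 (TMM, glmQLFit, glmQLFTest; R 4.3.3) with Benjamini-Hochberg adjustment over all genes. The standard error is the log2 fold change divided by the square root of F. TMM factors were 1.30 to 1.37 in wt/wt, 0.651 in f/f and 0.779 to 0.952 in mutant oocytes. CPM uses these factors. The procedure was first run on simulated counts with known changes, and the outcome of that run is not reported here. With no measure of total RNA, a fall of 1 gene and a rise of others cannot be told apart.

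Gene positions, transcripts and 49-base words came from GENCODE M21 (GRCm38). For each gene the shortest principal CCDS transcript among those of the best support level was used, so a shorter one of weaker support was passed over. Lengths and values per kb are those of the transcript so chosen. No genome sequence was used, so words were compared with annotated transcripts alone. Of the members, 25 overlap a gene on the other strand, and how the counting used strand is not given in the sources used here.

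The members and gene lists were chosen with earlier results of these data known. Members were named if among the 8 smallest p of called members in a direction and comparison, the 5 highest per kb in wt/wt oocytes, paralogues, the P stalk, Rpl5, Rpl11, Rps6 or the highest or lowest in words of their own. Some genes that this rule names are not reported here. Rps10, Rps15a, Rps20, Rpl26, Rpl30, Rpl34 and Rps27rt were named after their values were seen. Alternatives were other scalings (DESeq2 size factors, upper quartile, library totals, TMM without the members), DESeq2 1.42.0, other filters, adjusted p alone, other library groupings, a replicate block, thinned counts, GC and length trends removed, members with few words of their own left out, and each oocyte left out.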

Additional observations from a re-analysis of the deposited data

Results flagged for a closer look

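In 6 of 72 sets of values (named members and the member share, in the 4 wt/wt and in the 5 mutant oocytes), 1 oocyte stood apart from the rest of its group by Dixon's criterion, where chance gives about 3.6. Rps2 was 340 CPM in wt5 against 186 CPM in the next wt/wt oocyte, and it stayed below every mutant oocyte. In D1, Rplp1 was 1780 CPM against 347 CPM in the next mutant oocyte, and Rpl41 was 2532 CPM against 986. In D4, Rpl5 was 503 CPM against 160, Rpl39l was 73.2 CPM against 17.6 and Rpl22l1 was 12.3 CPM against 2.44. D1 and D4 were also the mutant oocytes with the highest share of counts in ribosomal protein genes, 0.863% and 0.717%.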

How the results depend on the processing

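The median log2 fold change of the members was below 0 in all 47 alternatives of the 2 comparisons, and no named member turned sign while called. Library totals gave medians of -1.74 against wt/wt and -1.42 against control, with 35 lower members against control (43.75%, against 18.1% of all genes in that fit), and shifted the median of all genes from 0.27 to -0.33. Relative to all genes the members' median was -1.38 with TMM and -1.41 with library totals, while the higher calls of all genes went from 59.2% to 31.5% of calls. Against wt/wt, library totals left 8 of the 12 higher members called (10% of members, 10.8% of all genes), without Rpl41, Rplp0, Rps10 and Rps21. Removing GC and length trends gave medians of -1.75 and -1.50, with 7 higher against wt/wt and 37 lower and 6 higher against control. Both higher counts lay under the share over all genes (8.75% against 15.3%, and 7.5% against 11.5%). filterByExpr gave 9 lower against control (13.8% of members tested, 13.6% of all genes), so the excess over all genes was lost there. Leaving out members with under 50% of words of their own kept 40 tested members. Against wt/wt 18 were lower and 7 higher (12.9% and 18.7% of all genes tested), so the higher calls were near that share. Against control 9 were lower and 7 higher (11.2% and 14.7% of all genes tested). The shares of counts were then 0.313% in wt/wt, 0.111% in f/f and 0.259% in mutant oocytes, from fewer members by construction. The order of the wt/wt and mutant means was opposite to that with all members (0.508% and 0.571%), and the ranges over oocytes of the latter overlapped. With the 100 genes of highest count left out of the total, the share of counts in ribosomal protein genes was 0.755% in wt/wt, 0.344% in f/f and 1.15% in mutant oocytes. Where a cause is not named it was not tested.

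With an oocyte left out, the lower members numbered 22 to 36 against wt/wt and 6 to 35 against control. The lowest counts, both without wt1, were 27.5% of members against 10.4% of all genes, and 7.5% against 8.61%.

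The labels do not say that their numbers pair the oocytes. The 3 numbers that wt/wt and mutant libraries share gave correlations of deviations from -0.09 to 0.10, and 2 of 3 wt/wt libraries correlated best with the mutant library of their number, among the libraries of those 3 numbers. With so few numbers, and with mutant numbers 4 and 5 both from D3, these values cannot decide whether the numbers pair oocytes. With every library as its own sample and the number as a replicate block, the median was -1.77 against wt/wt, and 1 lower and 6 higher members were called against control (1.25% and 7.5% of members, 4.07% and 6.44% of all genes), so the lower calls fell under the share over all genes.

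Depth limits the low members, since 3 counts stand for 0.456 to 1.83 CPM. No genome was used, so the words of a transcript could not be searched outside annotated transcripts.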

Other observations

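Of the 6 pseudogene symbols that the rule left out, 5 had counts and Rpl34-ps1 had none in any oocyte. Rpl14-ps1 had 26, 20, 28 and 28 counts in wt/wt, 3 in f/f and 5, 2, 0, 1 and 2 in mutants, which gave a log2 fold change of -3.68 against wt/wt (SE 0.80), next to -3.28 for Rpl14. Rps15a-ps4 had 116, 251, 188 and 149 counts in wt/wt, 68 in f/f and 7, 4, 43, 90 and 15 in mutant oocytes (-3.15, SE 0.49). Rps15a-ps6 had 94, 193, 149 and 116 counts in wt/wt, 241 in f/f and 104, 141, 192, 325 and 133 in mutants, which gave a log2 fold change of 0.07 (SE 0.34). These rows come from unique best alignments as the members do, and reads that a gene and its copies share were not counted for either. Rpl31-ps12 had 30, 20, 16 and 22 counts in wt/wt, 4 in f/f and 1, 1, 1, 23 and 3 in mutants (-2.79, SE 0.70), and Rps19-ps3, at 0 to 4 counts in each oocyte, was not tested.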
